A study of Mus musculus with 4 samples.

Results

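Ureters that lacked PPARG function in the epithelium and were cultured with purmorphamine were set against ureters of untreated controls, to describe how near the treated mutant came to the untreated control state, what remained changed and what went past it. The members are the 2 pools of *Pparg-cKO* ureters treated with purmorphamine and the 2 control pools cultured with DMSO, chosen by their genotype and treatment, that is 4 of the 8 pools of the series. The other 4 pools, *Pparg-cKO* with DMSO and control with purmorphamine, are used to place these values. They also enter the choice of genes tested and the estimate of the spread behind each standard error and p-value. All mice were of the NMRI strain. *Pparg-cKO* ureters carried *Pax2-cre/+; Pparg (fl/fl)* and control ureters *Pparg (fl/?)* without cre. Ureters were dissected on the day of birth (P0) and cultured for 8 d on transwell membranes, with 2 µM purmorphamine, a small molecule that activates SMO and so the hedgehog pathway, or with its solvent DMSO. The *Pax2-cre* line recombines in the nephric duct and its derivatives, the ureteric epithelium and the collecting duct, whereas purmorphamine was added to the medium of the whole explant. Ureters of each genotype were pooled by sex, replicate 1 being male and replicate 2 female, and the size of a pool is not given in the sources used here.

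PPARG is a nuclear receptor that binds lipid ligands and directs the differentiation of fat cells and of the superficial cells of the urothelium, the stratified epithelium that seals the urinary tract with uroplakin plaques. SHH is secreted by the ureteric epithelium and acts on the mesenchyme around it, where PTCH1 releases SMO and GLI proteins switch on target genes. This signal maintains *Bmp4* and *Foxf1* in the mesenchyme and the formation of the smooth muscle coat.

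RNA was measured on 4 two-color Agilent arrays, each of which carried the untreated and the treated pool of the same genotype and sex, and dyes were exchanged between replicates. Levels are given as log2 intensity after normalization, the male pool before the female pool, and a difference of 1 is a 2-fold difference. Of 29924 gene names 20229 were tested, those for which 1 or more of the 4 groups had a probe that both pools measured well above background. The probes of urothelium and smooth muscle were bright in all 4 pools: the summed intensity of 10 urothelial markers was 18.54 and 18.74 in the control pools and 18.53 and 18.58 in the treated *Pparg-cKO* pools on the log2 scale. The targeted gene itself cannot check the genotype, as the mutant allele gives a stable mRNA without the floxed exons. *Pparg* was 14.79 and 15.31 in the male and the female control pool, 15.95 and 16.10 in the treated *Pparg-cKO* pools and 15.55 and 15.58 in the untreated *Pparg-cKO* pools, and its level was higher in the treated mutant by 0.98 ± 0.17 (SE, n = 2 and 2, adjusted p = 0.018).

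Gene expression differed between treated *Pparg-cKO* and untreated control ureters in both directions. In the limma fit, 1114 of the 20229 genes (5.51%) were higher and 1190 (5.88%) were lower in the treated mutant at a Benjamini-Hochberg adjusted p under 0.05, together 11.4%, and counts of gene list members are read against these shares. The median difference over all genes tested was -0.002. Of the called genes, 328 were higher and 460 lower by at least 2-fold. The 2 pools of each group did not overlap for any of the called genes, but they also did not overlap for 5620 genes (27.8%) in the higher and 5862 (29%) in the lower direction out of all tested. No source says that the pools came from separate cultures beyond their sex, so p-values measure the spread between these pools only. The counts rested on few pools: they fell to 146 higher and 103 lower without the male control array, 599 and 780 without the female control array, 252 and 230 without the male *Pparg-cKO* array, and 251 and 411 without the female *Pparg-cKO* array.

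**Figure D1:**
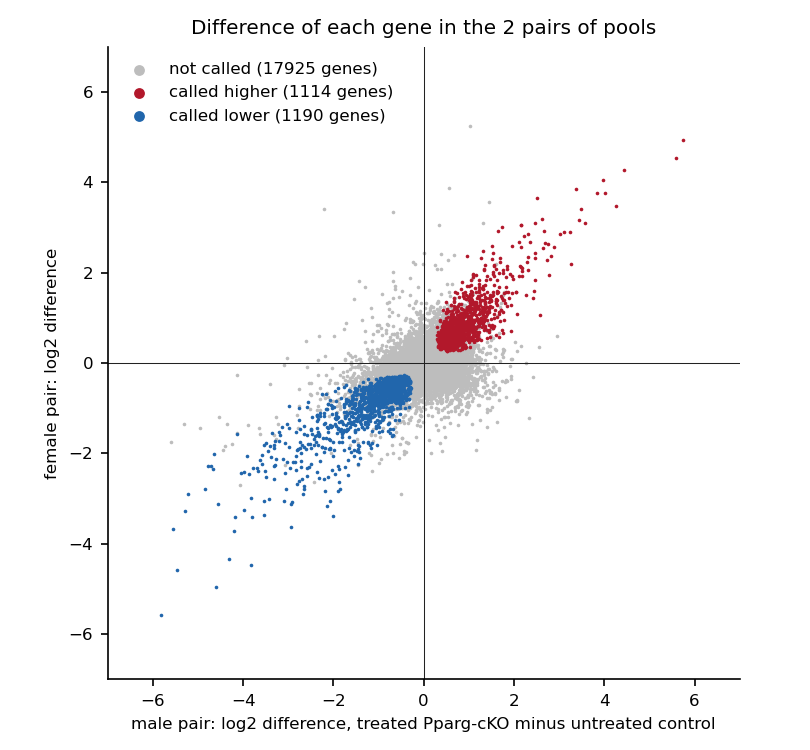
Log2 difference of treated *Pparg-cKO* minus untreated control for each tested gene, in the male pair (x axis) and the female pair (y axis). Red points are the 1114 genes called higher, blue points the 1190 called lower and grey points the 17925 not called, and the called genes lie in the quadrants where both pairs have the same sign.

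The genes that differed in the mutant without treatment give the starting point. Untreated *Pparg-cKO* against untreated control called 404 genes higher and 385 lower, 3.9% of the genes tested. Both comparisons use the same control pools, so they are placed side by side without a test. Among the 789 genes, 519 (65.8%) were still called in the same direction in the treated mutant. Another 225 (28.5%) were no longer called and had a 95% confidence interval of the difference from control inside a 2-fold range either way, which is termed near control here. A further 41 (5.2%) were not called but had a wider interval, and 4 were called in the opposite direction. In 601 of the 789 (76.2%) the difference from control was smaller in size with treatment than without, and in 188 it was larger. Over all genes tested it was smaller in 7663 of 20229. The 789 genes were chosen for their untreated difference in these same pools, which by itself favors a smaller difference with treatment. The share is therefore no measure of recovery.

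The genes called in the untreated mutant were followed into the treated mutant. Of the 404 higher genes, 236 (58.4%) were still higher, 142 (35.1%) were near control and 23 (5.69%) were undecided, and their median difference from control was 1.12 without and 0.62 with purmorphamine. Of the 385 lower genes, 283 (73.5%) were still lower, 83 (21.6%) were near control and 18 (4.68%) undecided, with a median of -1.03 without and -0.81 with treatment. The difference between these shares was not tested, and the filter lets in genes that were above background in the untreated mutant alone and may lie at background in both groups compared. With the filter on those groups alone, 192 genes were near control in place of 225, 231 still higher and 284 still lower. The order of the still higher and still lower counts turned with a replicate block (103 and 81) and with dye as a term (68 and 52). When the male control, female control, male *Pparg-cKO* and female *Pparg-cKO* array was left out in turn, 65, 39, 94 and 106 genes were still higher, 17, 15, 75 and 132 still lower, and 47, 4, 122 and 30 near control. In treated against untreated *Pparg-cKO*, 197 of the 789 genes were called opposite to their untreated difference and 16 in the same direction. The untreated mutant pools enter the untreated difference and the treatment difference with opposite signs. As the 789 genes were chosen for their untreated difference, this by itself favors opposite calls. The counts of 197 and 16 are therefore no measure of recovery.

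**Figure D2:**
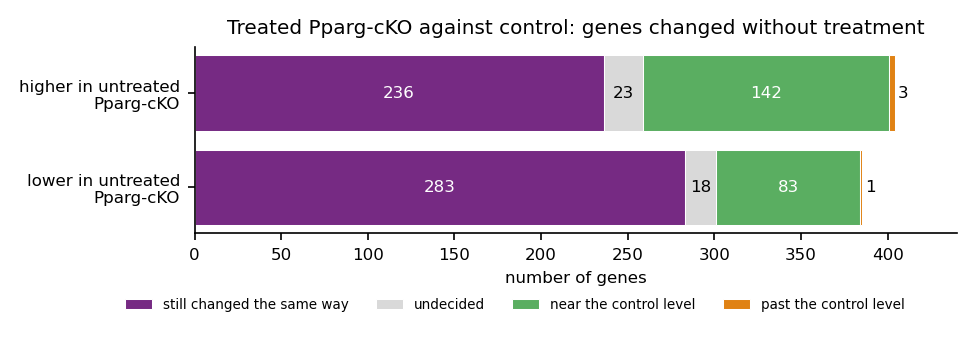
Number of genes called higher or lower in untreated *Pparg-cKO* ureters, split by their state in the treated *Pparg-cKO* ureters against the same untreated controls. Higher genes were still higher in 236 cases, near control in 142, undecided in 23 and past control in 3, and lower genes were still lower in 283, near in 83, undecided in 18 and past in 1.

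All 10 of the largest increases in the treated mutant were of genes that had also been called higher in the untreated mutant. *Msln*, which encodes mesothelin, a surface protein of mesothelial cells, was 7.99 and 8.10 in the control pools, 13.86 and 13.37 in the untreated and 13.74 and 13.04 in the treated *Pparg-cKO* pools. Both treated pools were thus far above both control pools and close to the untreated mutant pools, and the difference from control was 5.35 ± 0.32 (SE, n = 2 and 2, adjusted p = 0.0011). *Lypd2*, of the Ly6 family of surface proteins, was 8.78 and 8.71 in the control pools and 13.21 and 12.99 in the treated mutant, higher by 4.35 ± 0.19 (SE, n = 2 and 2, adjusted p = 5.0e-04). *Foxi1*, a forkhead factor of ion-transporting epithelial cells, was 6.63 and 6.76 in the control pools, 10.20 and 9.96 in the untreated and 10.60 and 10.82 in the treated mutant. It was higher than control by 4.01 ± 0.13 (SE, n = 2 and 2, adjusted p = 2.8e-04), and here the treated pools lay above the untreated mutant pools too, by 0.63 (adjusted p = 0.036).

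*Prm1*, known for the protamine that packs sperm DNA, did not rise well above background in the control pools and reached 11.81 and 10.70 in the treated mutant, where it was at least 28.3-fold higher (adjusted p = 0.0014). *Gabrp*, a GABA-A receptor subunit, was 7.04 and 7.11 in the control pools and 11.30 and 10.59 in the treated mutant. *Lrrc26*, an auxiliary subunit of potassium channels, was 9.05 and 8.68 and 12.89 and 12.45, and again no treated pool reached down to a control pool. *Pdzk1*, a scaffold for membrane transporters, *Serpinb11*, a serpin, *2310007B03Rik* and *1810046K07Rik* completed the 10, with differences of 3.62, 3.44, 3.89 and 3.33. *1810046K07Rik* was also not well above background in the control pools, so that only a bound of at least 7.98-fold holds for it.

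Of the 10 largest decreases, 5 had been lower in the untreated mutant and 5 had not been called there. *Fgl1*, a secreted fibrinogen-like protein, was 13.35 and 12.56 in the control pools, 8.90 and 8.55 in the untreated and 7.52 and 6.97 in the treated *Pparg-cKO* pools, a difference of -5.71 ± 0.51 (SE, n = 2 and 2, adjusted p = 0.0035) from control. The treated pools had the lowest values of the 3 groups. *Pla2g4c*, a phospholipase A2, was 12.13 and 11.24 in the control and 6.66 and 6.67 in the treated mutant pools, and *Bpifb1*, a secreted protein of mucosal surfaces, was 13.37 and 12.00 and 7.81 and 8.31. Their differences were -5.02 and -4.62, and *Pla2g4c* was well above background in 1 of the treated pools. In these bulk pools, fewer cells of a type and less RNA per cell cannot be told apart. *Col6a5*, a chain of collagen VI, was 12.18 and 12.90 in the control, 10.99 and 11.46 in the untreated and 7.58 and 7.94 in the treated mutant pools. Its difference from control was -1.31 without and -4.78 with treatment, and treated minus untreated mutant was -3.46 (adjusted p = 0.0046). *Gsdmcl-ps*, a gasdermin C-like pseudogene whose probe may share RNA with its gene family, was 11.40 and 10.81 in the control and 7.19 and 7.09 in the treated mutant pools.

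The 5 genes near control with the largest untreated decrease included a gene of the urothelial surface. *Upk3b*, a uroplakin, was 12.54 and 12.85 in the control, 10.81 and 10.92 in the untreated and 12.15 and 12.45 in the treated *Pparg-cKO* pools. Treated pools remained just under both control pools, with a difference of -0.39 (95% confidence interval -0.83 to 0.04). *Hsd17b2*, which inactivates sex steroids, was 10.72 and 11.11 in the control, 8.62 and 8.46 in the untreated and 10.55 and 11.28 in the treated mutant pools. The treated and control pools overlapped, and the difference was 0.00 (95% confidence interval -0.69 to 0.69). *Adamdec1*, a metalloprotease, was 12.38 and 12.36 in the control and 12.09 and 12.64 in the treated mutant pools, also overlapping. *2310002D06Rik* and *1810020O05Rik* completed the 5 with the largest untreated decrease, differing from control by -0.08 and -0.41.

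Of the genes near control that had been higher, the 5 with the largest untreated increase were mostly dim in the controls. *Dpp4*, a dipeptidyl peptidase, was 7.92 and 6.56 in the control, 9.84 and 9.61 in the untreated and 7.32 and 7.23 in the treated mutant pools, and both treated pools lay between the control pools. *Umod*, the uromodulin of the thick ascending limb of the kidney, was 7.14 and 6.07, 8.74 and 9.21 and 6.78 and 6.66 in the same order, again between the control pools. *Slc34a2*, a sodium phosphate cotransporter, was not well above background in either treated pool and in 1 of the control pools. *Dpp4*, *Umod* and *Tmem213* were well above background in 1 of the 2 control pools, and *Plekhs1* in both, at 8.04 and 7.92 against 8.69 and 8.07 in the treated mutant.

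The 4 genes called past control differed from it by less than 2-fold, except for *Clca1*. *Clca1*, a secreted mucus protein of goblet cells, was 11.59 and 12.20 in the control, 13.99 and 15.17 in the untreated and 8.94 and 9.47 in the treated *Pparg-cKO* pools. The treated pools lay below both control pools, with a difference of -2.69 ± 0.39 (SE, n = 2 and 2, adjusted p = 0.011), after having been higher by 2.69 without treatment. *Reg1*, a secreted lectin, was 9.18 and 8.97 in the control, 10.91 and 10.65 in the untreated and 8.54 and 8.16 in the treated mutant pools, and *Casr*, the calcium-sensing receptor, was 7.32 and 7.29, 7.71 and 7.96 and 6.62 and 6.65. Both ended below control, with differences of -0.72 (adjusted p = 0.033) and -0.67 (adjusted p = 0.014). *Rbp4*, the retinol carrier, went the other way, from 13.91 and 14.05 in the untreated to 15.64 and 15.72 in the treated mutant, above the control pools at 14.95 and 15.12 by 0.65 (adjusted p = 0.018). In control ureters, purmorphamine gave values of 7.08 and 7.36 for *Clca1*, 7.34 and 7.42 for *Reg1*, 6.23 and 6.18 for *Casr* and 15.61 and 15.46 for *Rbp4*, on the same side of the untreated control as in the treated mutant. Over 15 alternative settings the difference from control was called in 13 for *Clca1*, 9 for *Casr*, 8 for *Rbp4* and 6 for *Reg1*. The difference was -2.99 to -2.39 for *Clca1*, -1.11 to -0.54 for *Casr*, 0.42 to 0.73 for *Rbp4* and -0.91 to -0.54 for *Reg1*. The calls counted concern the treated mutant alone, and without background correction *Casr* was not called in the untreated mutant. With 1 array left out in turn, *Clca1* stayed past control only when that array was of *Pparg-cKO*. *Casr*, *Rbp4* and *Reg1* did not stay past control in any of these fits.

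**Figure D3:**
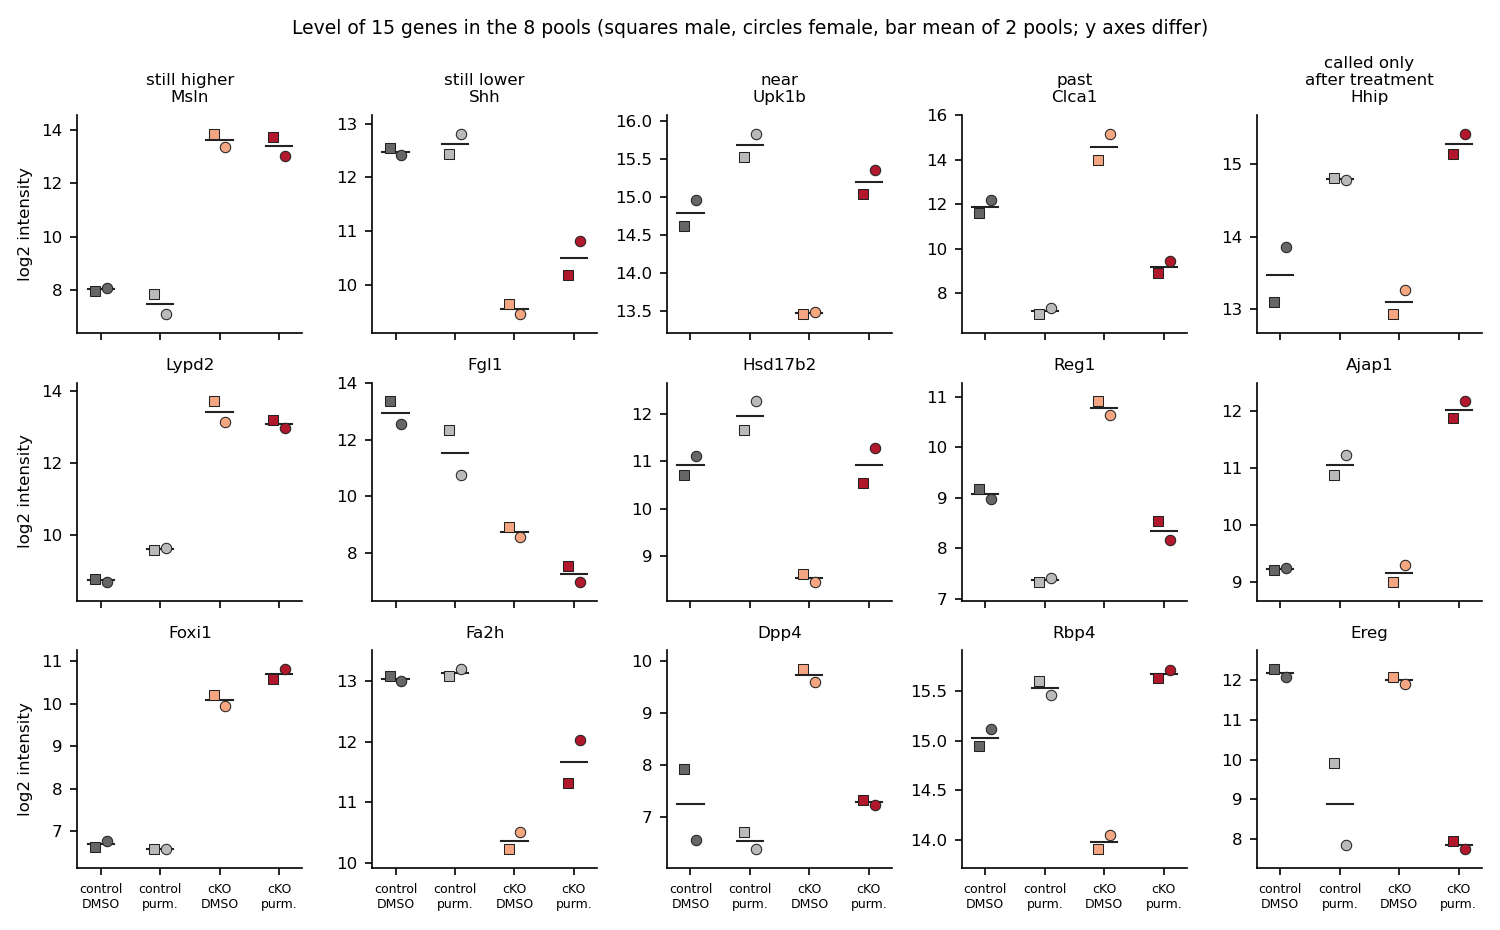
Log2 intensity of 15 genes in all 8 pools, with squares for male pools, circles for female pools and a bar for the mean of each group. *Msln*, *Lypd2* and *Foxi1* stayed high in the treated mutant, *Shh*, *Fgl1* and *Fa2h* stayed low, *Upk1b*, *Hsd17b2* and *Dpp4* lay near control, *Clca1*, *Reg1* and *Rbp4* were past it, and *Hhip*, *Ajap1* and *Ereg* differed from control only in the calls made with treatment.

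Most of the called genes had not differed in the untreated mutant by the same test. Of the 1114 higher genes 877, and of the 1190 lower genes 904, were not called in untreated *Pparg-cKO*, with median differences of 0.69 and -0.80 in the treated and 0.15 and -0.26 in the untreated mutant. Treatment within the mutant was called in the same direction for 399 of the higher and 329 of the lower genes. The 5 with the largest increase were *Cyp1a1*, an oxidase induced through the aryl hydrocarbon receptor, *Ajap1*, which binds adherens junctions, *Meox2*, a homeobox factor of mesenchyme, *Angpt4*, an angiopoietin, and *Ntrk3*, the neurotrophin-3 receptor, with differences of 2.60 to 3.09. *Ajap1* was 9.21 and 9.25 in the control, 9.01 and 9.31 in the untreated and 11.88 and 12.17 in the treated *Pparg-cKO* pools. *Angpt4* was 8.83 and 8.87, 9.06 and 8.93 and 11.72 and 11.45 in the same order, and *Meox2* was 8.22 and 8.68, 8.48 and 8.62 and 10.69 and 11.77. In these genes the untreated mutant differed from control by no more than 0.15 in size, and the treated pools stood apart. *Cyp1a1* was 6.87 and 6.40 in the control, where 1 pool was well above background, 8.05 and 8.32 in the untreated and 9.39 and 10.06 in the treated mutant pools, so that its untreated values lay between the other groups.

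The 5 largest decreases of this kind were of secreted and cytokine-induced genes. *Ereg*, which encodes the EGF receptor ligand epiregulin, was 12.28 and 12.09 in the control, 12.09 and 11.91 in the untreated and 7.96 and 7.74 in the treated *Pparg-cKO* pools, with a difference of -4.33 ± 0.58 (SE, n = 2 and 2, adjusted p = 0.008). *Tnfaip6*, a hyaluronan-binding protein induced by tumor necrosis factor, was 13.17 and 13.69, 12.84 and 12.02 and 9.35 and 9.22 in the same order. The untreated mutant was close to control in *Ereg*, whereas in *Tnfaip6* both untreated mutant pools already lay below both control pools without passing the test (adjusted p = 0.26), and in both genes the treated mutant was lower still. *Ubd*, a ubiquitin-like modifier, *Retnla*, a resistin-like protein, and *Wfdc21* also had lower values in the untreated mutant, with differences of -2.71, -2.23 and -2.17, without passing the test (adjusted p = 0.062, 0.1 and 0.11). Their differences from control with treatment were -4.06, -3.83 and -4.29, with *Ubd* and *Wfdc21* well above background in 1 of the 2 treated pools.

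The hedgehog pathway was split between its ligand and its targets. *Shh* was 12.54 and 12.41 in the control, 9.64 and 9.46 in the untreated and 10.18 and 10.82 in the treated *Pparg-cKO* pools. Both treated pools lay between the untreated mutant and the control, with a difference of -1.98 ± 0.23 (SE, n = 2 and 2, adjusted p = 0.0056) from control, against -2.93 without treatment, and the difference between treated and untreated mutant, 0.95, did not pass the test (adjusted p = 0.054). *Ihh*, another hedgehog ligand, was 6.45 and 6.59 in the control and 7.89 and 8.03 in the treated mutant pools, higher by 1.44 ± 0.10 (SE, n = 2 and 2, adjusted p = 0.0019), but was well above background in only 1 control pool. *Dhh*, the remaining ligand, differed by -0.11 (adjusted p = 0.77).

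Feedback targets of the pathway were above the untreated control. *Hhip*, which binds and sequesters the ligands, was 13.10 and 13.86 in the control, 12.93 and 13.26 in the untreated and 15.15 and 15.43 in the treated *Pparg-cKO* pools, higher than control by 1.81 ± 0.25 (SE, n = 2 and 2, adjusted p = 0.0091). *Gli1*, the transcription factor that is itself a target, was 12.13 and 12.79, 12.51 and 12.36 and 13.82 and 13.72 in the same order, and was higher by 1.31 ± 0.23 (SE, n = 2 and 2, adjusted p = 0.018). *Ptch1*, the main receptor, was 9.37 and 9.40, 8.54 and 8.83 and 10.17 and 10.45, and was higher by 0.92 (adjusted p = 0.019). In each of these 3 genes both treated mutant pools exceeded both control pools, and in none had the untreated mutant been called. Purmorphamine in control ureters gave 14.82 and 14.79 for *Hhip*, 13.70 and 13.35 for *Gli1* and 10.21 and 10.56 for *Ptch1*. All 4 feedback targets of the list were called higher, but 2 with a replicate block, 0 with dye as a term and 4 with both. *Gli1* kept its call without the female control array and lost it without each of the others, *Hhip* lost it without the male control and without the female *Pparg-cKO* array, and *Ptch1* lost it whichever of the 4 arrays was left out, with adjusted p-values of 0.06 to 0.12.

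The sequences before the starts of *Hhip* and *Ptch1*, both direct readouts of GLI activity, are shown with a search for the core of the motif that GLI proteins bind. They are the 250 bases before the start of each gene in RefSeq, build GRCm38.p6, at chr8:80058009-80058258 and chr13:63565736-63565985, both on the minus strand, and are printed 5′ to 3′ in lower case.
Hhip: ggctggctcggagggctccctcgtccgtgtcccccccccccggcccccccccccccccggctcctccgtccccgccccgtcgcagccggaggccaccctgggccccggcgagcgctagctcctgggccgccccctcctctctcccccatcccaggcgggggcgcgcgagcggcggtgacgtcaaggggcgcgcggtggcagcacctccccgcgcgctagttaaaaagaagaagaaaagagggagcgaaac
Ptch1: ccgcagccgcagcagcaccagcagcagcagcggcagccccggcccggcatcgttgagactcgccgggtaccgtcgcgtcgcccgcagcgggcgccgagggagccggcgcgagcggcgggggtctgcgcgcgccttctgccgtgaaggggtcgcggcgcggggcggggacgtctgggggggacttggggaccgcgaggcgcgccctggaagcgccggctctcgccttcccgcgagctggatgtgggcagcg
The core of the GLI motif, ACCACCC, was searched on both strands and had 0 matches in either sequence, which is why no letter is in capitals. It was present in 1289 of 32851 windows of this length (3.92%). The absence says only that these letters are not in these windows.

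Of 11 transducers of the pathway 3 were higher and 0 lower, with a median of 0.34. These were *Smo* itself by 0.51, the co-receptor *Cdon* by 0.98 and *Hhat*, the acyltransferase of the ligands, by 0.55. None of the 11 had been called in the untreated mutant. With the male control, female control, male *Pparg-cKO* and female *Pparg-cKO* array left out in turn, 0, 2, 0 and 0 were called higher, and 0 were called with dye as a term.

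Regulators of the ureteric mesenchyme were mostly higher in the treated mutant. Of 12 genes 7 were higher and 1 lower, with a median of 0.76 against 0.06 in the untreated mutant, where none had been called. *Bmp4*, the growth factor of the mesenchyme, was 14.46 and 15.02 in the control, 14.69 and 14.91 in the untreated and 15.69 and 15.85 in the treated *Pparg-cKO* pools, higher by 1.03 ± 0.19 (SE, n = 2 and 2, adjusted p = 0.02). The forkhead factors *Foxf1* and *Foxl1* were higher by 0.94 and 0.78, the mesenchymal transcription factors *Tcf21*, *Tbx18* and *Tshz3* by 0.98, 0.74 and 0.58, and *Meox2* by 2.78. *Aldh1a2*, which makes retinoic acid, was the one that was lower, at 14.79 and 14.66 in the control and 14.01 and 13.99 in the treated mutant pools (adjusted p = 0.031). Its call was lost with a replicate block, with dye as a term, with both, on the processed signals and with any 1 array left out. The difference was -0.94 to -0.66 over the alternative settings. Leaving out the male control, female control, male *Pparg-cKO* and female *Pparg-cKO* array in turn left 0, 6, 1 and 1 genes called higher.

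Smooth muscle genes had higher values in the treated mutant than in untreated controls. All 12 had higher values in both treated pools than in both control pools, which held for 27.8% of all genes tested. Of the 12, 6 passed the test, and the median was 0.80 beside 0.00 in the untreated mutant. *Myh11*, the smooth muscle myosin heavy chain, was 14.34 and 14.92 in the control, 14.78 and 14.48 in the untreated and 15.39 and 15.46 in the treated *Pparg-cKO* pools, higher by 0.80 ± 0.20 (SE, n = 2 and 2, adjusted p = 0.049). The other 5 were *Acta2* and *Actg2*, both actins, *Tagln*, *Cnn1* and *Smtn*, which bind them, with differences of 0.81 to 0.91. The untreated mutant pools of *Myh11* lay within the range of the controls. *Myocd*, the coactivator of this program, differed by 0.40 (adjusted p = 0.11). Of 17 collagen genes 5 were higher and 1 lower, with a median of 0.36. Without the male control, female control, male *Pparg-cKO* and female *Pparg-cKO* array in turn, 0, 4, 0 and 0 smooth muscle genes and 0, 3, 1 and 0 collagen genes were called higher. The 6 smooth muscle calls fell to 1 with a replicate block, to 0 with dye as a term, with block and dye or with the 4 compared channels alone, and to 1 without the filter on dim probes, without normalization between arrays or on the processed signals.

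**Figure D4:**
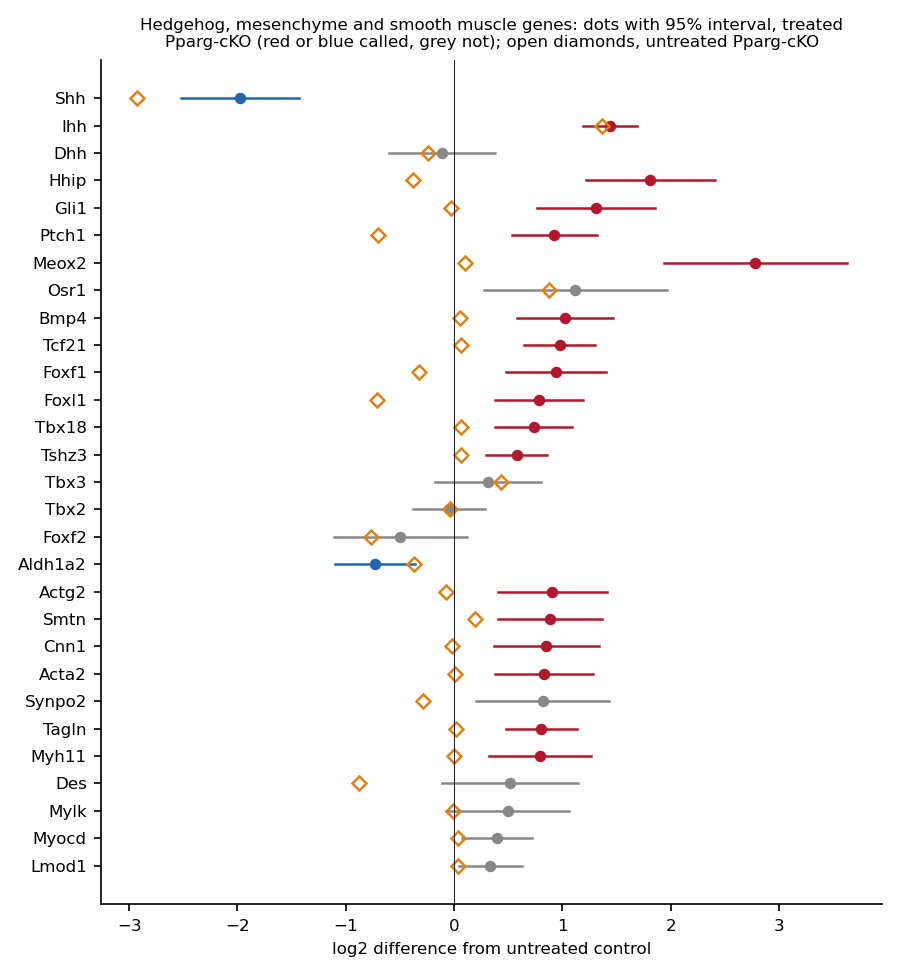
Log2 difference of treated *Pparg-cKO* minus untreated control (dots, with 95% confidence intervals) for the hedgehog ligands and feedback targets, mesenchyme regulators and smooth muscle genes, with open diamonds for the untreated *Pparg-cKO* minus the same controls. *Shh* stayed below 0, whereas the 3 feedback targets and 11 smooth muscle genes shown lay above 0 with treatment and their diamonds lie around or below 0.

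Of 6 uroplakins, the plaque proteins of superficial cells, 1 was higher in the treated mutant and the other 5 differed from control by -0.39 to 0.80. *Upk1a* was 14.86 and 15.38 in the control, 13.82 and 13.74 in the untreated and 15.68 and 16.16 in the treated *Pparg-cKO* pools. It had been called lower without treatment, at -1.34, and both treated pools lay above both control pools, by 0.80 (95% confidence interval 0.25 to 1.35, adjusted p = 0.073). *Upk2* was 15.31 and 15.72 in the control and 15.39 and 15.71 in the treated mutant pools, which overlapped, and *Upk1b* and *Upk3a* differed from control by 0.41 and 0.23 without passing the test. *Upk3bl*, a uroplakin-like gene, was the only one of the 6 called, at 11.49 and 10.88 in the control, 13.62 and 13.29 in the untreated and 13.60 and 13.54 in the treated mutant pools. It was higher by 2.39 ± 0.21 (SE, n = 2 and 2, adjusted p = 0.0033), and the treated and untreated mutant pools overlapped.

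Other genes of superficial cells had mostly lower values than in the control. Of 17 tested, 12 had been lower in the untreated mutant, and in the treated mutant 5 were lower and 0 higher. Of the 12, 4 were still lower, 5 near control and 3 undecided. In 16 of the 17 the difference from control was smaller with treatment, beside 7663 of 20229 over all genes tested. Among the 385 genes called lower without treatment, the difference was smaller in 249. As 12 of the 17 had been called lower in these same pools, a smaller difference with treatment is favored by itself. The count of 16 is therefore no measure of recovery. The median was -1.45 without and -0.59 with treatment. *Fa2h*, which hydroxylates the fatty acids of sphingolipids, had a mean of 13.04 ± 0.06 (SD, n = 2) in the control pools and was 10.22 and 10.51 in the untreated and 11.31 and 12.03 in the treated *Pparg-cKO* pools, and was still lower, with a difference of -1.37 ± 0.22 (SE, n = 2 and 2, adjusted p = 0.015). *Ly6k*, *Rnf144b*, *Paqr5* and *Sh3bgrl2* were the other genes called lower, with differences of -1.43, -0.88, -0.81 and -0.56. *Krt20*, the keratin of superficial cells, was 13.62 and 14.03 in the control, 10.03 and 10.21 in the untreated and 11.97 and 13.13 in the treated mutant pools. Both treated pools lay under the controls and far above the untreated mutant, and the difference of -1.27 did not pass the test (adjusted p = 0.071, 95% confidence interval -2.15 to -0.40). Without the male control, female control, male *Pparg-cKO* and female *Pparg-cKO* array in turn, 0, 1, 2 and 4 of the 17 were called lower.

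Larger lists came from the fetal ureters of the study, as genes lower or higher in *Pparg-cKO* before culture. Since the study chose them for their difference in this mutant, their direction here is not independent evidence. Of 56 genes lower in the fetal mutant, 26 were lower and 0 higher in the treated mutant, with a median of -0.69 beside -1.40 without treatment. Of the 38 that had been called lower in the untreated cultures, 23 were still lower, 9 near control and 6 undecided. Of 32 genes higher in the fetal mutant, 18 were higher and 5 lower, with a median of 1.07 beside 1.74 without treatment. Of the 17 called higher in the untreated cultures, 15 were still higher, 1 was near control and 1 undecided. Leaving out the male control, female control, male *Pparg-cKO* and female *Pparg-cKO* array in turn left 4, 10, 11 and 20 genes of the first list called lower and 12, 15, 7 and 8 of the second called higher.

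Among 14 urothelial transcription factors 2 were higher and 1 lower, *Pparg* and *Elf5* against *Trp63*. *Trp63*, the p63 factor that maintains basal cells, was 14.16 and 14.16 in the control, 13.54 and 13.75 in the untreated and 12.96 and 13.14 in the treated *Pparg-cKO* pools, with a difference of -1.11 ± 0.12 (SE, n = 2 and 2, adjusted p = 0.0052). The treated pools had the lowest values of the 3 groups. *Elf5*, an ETS factor of glandular epithelia, was 8.95 and 8.77, 10.03 and 10.44 and 9.59 and 9.73 in the same order, and was still higher by 0.80 (adjusted p = 0.031). The transcription factors *Grhl3*, *Foxa1* and *Gata3* differed from control by 0.08, -0.09 and 0.37 without passing the test. Leaving out the male control, female control, male *Pparg-cKO* and female *Pparg-cKO* array in turn left 0, 1, 0 and 0 of the 14 called higher and 0, 1, 1 and 1 called lower. Of the 4 arrays, only the female control could be left out with *Pparg* still called, and *Elf5* lost its call without each of them, with adjusted p-values up to 0.14 and 0.13. The median of this list changes sign with the scaling and has no direction.

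Keratins of basal and stressed epithelium could not be placed. Of 7 tested limma called 0 at the adjusted p, while an unadjusted p under 0.05 was found for 1 with higher and 2 with lower values, and 1 was higher and 2 lower by the fold rule of the study, which asks for at least 1.5-fold in both pairs. *Krt5*, the basal cell keratin, was 16.64 and 16.65 in the control and 16.00 and 15.23 in the treated *Pparg-cKO* pools, both treated pools below the controls, with a difference of -1.03 (adjusted p = 0.061). *Krt16*, a keratin of stressed epithelium, was 10.19 and 9.22 in the control, 10.73 and 15.89 in the untreated and 9.51 and 12.56 in the treated mutant pools. The female mutant pools were high with and without treatment and the male ones were not, so that the treated mutant pools differed from each other by more than the groups did. Of 16 cornified envelope genes 4 were lower and 0 higher: *Sprr2a2*, *Sprr2a1* and *Sprr2b*, small proline-rich proteins whose near-identical copies may share a probe, and *Tgm1*, the transglutaminase that links them, with differences of -2.07, -1.09, -0.73 and -2.03. *Sprr2a1* and *Sprr2b* were not well above background in the treated pools and were lower by at least 1.8-fold and 1.44-fold. The median of that list was 0.23, opposite in sign to the called genes. Once the male control, female control, male *Pparg-cKO* and female *Pparg-cKO* array was left out in turn, 1, 3, 2 and 1 of the 16 were called lower, and 0, 0, 4 and 0 were then called higher.

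Junction genes were mixed. Of 18 tight junction genes 3 were higher and 1 lower. *Cldn3*, a sealing claudin, was 8.63 and 6.87 in the control, 11.80 and 11.74 in the untreated and 10.27 and 9.80 in the treated *Pparg-cKO* pools, still higher by 2.29 ± 0.53 (SE, n = 2 and 2, adjusted p = 0.039), and *Cldn8* and *Cldn23*, also claudins, were higher by 1.07 and 0.97. *Cldn15*, a pore-forming claudin, was 11.77 and 11.82 in the control and 9.04 and 9.95 in the treated mutant pools, with a difference of -2.30 ± 0.38 (SE, n = 2 and 2, adjusted p = 0.016). The 3 higher claudins had been higher in the untreated mutant too. Of 12 desmosome genes, the desmocollin *Dsc2* was higher by 0.90 and the plakophilin *Pkp2* was lower, at -0.66. Without the male control, female control, male *Pparg-cKO* and female *Pparg-cKO* array in turn, 1, 3, 1 and 1 tight junction genes were called higher and 0, 0, 1 and 1 lower.

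Genes of fatty acid and triglyceride synthesis had lower values than in the control. Of 19 tested 11 were lower and 0 higher, of which 6 had been lower in the untreated mutant and 5 had not. The 11 calls became 5 with a replicate block, 1 with dye as a term, 8 with both and 2 with the 4 compared channels alone. The median difference was -0.80 beside -0.67 without treatment. *Scd1*, the stearoyl-CoA desaturase, was 16.20 and 16.62 in the control, 13.95 and 15.32 in the untreated and 12.22 and 14.21 in the treated *Pparg-cKO* pools, with a difference of -3.19 ± 0.68 (SE, n = 2 and 2, adjusted p = 0.031). *Fasn*, the fatty acid synthase, was 10.02 and 10.40, 8.92 and 9.42 and 8.65 and 8.99 in the same order, still lower, with a difference of -1.39 ± 0.21 (SE, n = 2 and 2, adjusted p = 0.012). In both genes the treated mutant pools had values below their untreated counterparts of the same sex and none reached the controls. The others included *Srebf1*, which drives lipid synthesis genes, at -1.27, and the acyltransferases *Dgat2*, *Dgat1*, *Agpat2* and *Gpam* at -1.24, -0.98, -0.98 and -0.60. Without the male control, female control, male *Pparg-cKO* and female *Pparg-cKO* array in turn, 1, 1, 1 and 7 of these genes were called lower.

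Cholesterol synthesis genes had lower values in the treated mutant than in untreated controls. Of 20 genes 8 were lower and 0 higher, with a median of -0.52, whereas limma had called 0 in the untreated mutant (an unadjusted p under 0.05 held for 0 with higher and 2 with lower values), with a median of 0.11. In 19 of the 20 both treated mutant pools lay below both control pools, beside 29% of all genes tested. *Insig1*, a sterol-regulated retention protein, was 14.10 and 14.53 in the control, 13.55 and 13.71 in the untreated and 12.91 and 13.25 in the treated *Pparg-cKO* pools, with a difference of -1.23 ± 0.17 (SE, n = 2 and 2, adjusted p = 0.0099). Its untreated mutant pools also lay below both controls, at -0.69 (adjusted p = 0.097), and treated minus untreated mutant was -0.55 (adjusted p = 0.11). The called genes included *Lss*, lanosterol synthase, at -0.78, and *Pmvk*, phosphomevalonate kinase, at -0.70. Of 15 genes of fatty acid oxidation 4 were lower, among them *Ehhadh*, a peroxisomal enzyme, at -1.66, and 1 was higher, *Acaa2*, a mitochondrial thiolase, by 0.59. Sphingolipid synthesis, with 1 of 15 genes higher and 3 lower, had a median that changes sign between settings. Leaving out the male control, female control, male *Pparg-cKO* and female *Pparg-cKO* array in turn left 0, 1, 0 and 1 cholesterol genes, 0, 0, 1 and 1 oxidation genes and 0, 0, 1 and 2 sphingolipid genes called lower. With dye as a term 1 cholesterol and 0 oxidation genes were called lower.

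Fat cell genes had lower values alongside the lipid genes. Of 11 tested 3 were lower and 0 higher. The 3 calls became 1 with a replicate block, 0 with dye as a term, 1 with both and 0 with the 4 compared channels alone. Lower values in both treated mutant pools than in both control pools were found for 10, beside 29% of all genes tested. *Adig*, an adipocyte protein, was 13.96 and 14.24 in the control, 11.60 and 11.15 in the untreated and 9.17 and 11.95 in the treated *Pparg-cKO* pools. The male treated pool was the lowest, and the median over the 11 genes was -3.91 in the male pair and -1.38 in the female pair. The summed intensity of the list was 18.57 and 19.03 in the control, 18.09 and 17.73 in the untreated and 16.33 and 17.96 in the treated mutant pools. The defining markers were well above background throughout, and their part in the lipid results was not tested. Leaving out the male control, female control, male *Pparg-cKO* and female *Pparg-cKO* array in turn left 0, 0, 1 and 10 fat cell genes called lower.

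Mucosal defense and cytokine genes were mostly lower in the treated mutant than in untreated controls. Of 21 genes 13 were lower and 1 higher, with a median of -2.32 beside -0.07 in the untreated mutant. *Il1b*, which encodes interleukin 1 beta, was 10.49 and 9.85 in the control, 9.95 and 9.53 in the untreated and 7.68 and 7.17 in the treated *Pparg-cKO* pools, with a difference of -2.74 ± 0.27 (SE, n = 2 and 2, adjusted p = 0.0042). The chemokines *Cxcl5* and *Cxcl1*, which draw neutrophils, were lower, with differences of -3.07 and -2.42. *Pglyrp1*, a peptidoglycan-binding protein, was higher by 1.70. Of 12 EGF ligands and receptors 3 were lower and 0 higher, *Ereg* with *Areg*, amphiregulin, at -1.65 and *Nrg1*, neuregulin, at -1.19. Markers of macrophages and leukocytes were lower alongside these genes: 5 of 16 were lower and 0 higher, led by *Mrc1*, the mannose receptor, at -1.98, and *Adgre1*, a surface receptor of macrophages, at -1.15. Of the 16, 14 had lower values in both treated pools than in both control pools, beside 29% of all genes tested. The summed intensity of the macrophage list was 18.95 and 18.50 in the control and 18.07 and 18.10 in the treated mutant pools, none of its genes was at background, and its part in the cytokine values was not tested. Without the male control, female control, male *Pparg-cKO* and female *Pparg-cKO* array in turn, 6, 11, 7 and 4 defense genes, 1, 2, 0 and 0 EGF ligands or receptors and 1, 7, 1 and 2 macrophage genes were called lower. With dye as a term 0 EGF ligands or receptors were called.

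Of 13 endothelial genes 6 were higher and 0 lower, with a median of 1.06 beside 0.55 in the untreated mutant. *Tek*, the angiopoietin receptor, was 9.19 and 9.52 in the control, 9.35 and 9.25 in the untreated and 11.10 and 11.49 in the treated *Pparg-cKO* pools, higher by 1.94 ± 0.18 (SE, n = 2 and 2, adjusted p = 0.004). *Cdh5*, the endothelial cadherin, *Emcn*, endomucin, *Robo4*, *Kdr*, a VEGF receptor, and *Pecam1* were higher by 1.18 to 1.80. The summed intensity of the list was 15.03 and 14.38 in the control and 15.94 and 15.89 in the treated mutant pools. Without the male control, female control, male *Pparg-cKO* and female *Pparg-cKO* array in turn, 6, 6, 2 and 2 of the 13 were called.

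Several kidney genes were dim in the groups compared. Of 10 tested, 2 were not well above background in the control and 4 in the treated mutant, against 0 in the untreated mutant, and 6 would be tested if the filter used the compared groups alone. Of the 5 called higher without treatment, 1 was still higher, 3 were near control and 1 was undecided. The summed intensity of the kidney list was 14.04 and 13.94 in the control, 14.53 and 14.63 in the untreated and 13.66 and 13.22 in the treated mutant pools. *Slc14a2*, a urea transporter, was still higher by 1.22 (adjusted p = 0.0078). Mesothelial genes had no common direction, as *Msln* was higher while *Wt1*, a zinc finger factor of mesothelium and podocytes, was 10.16 and 10.34 in the control, 10.67 and 10.96 in the untreated and 7.14 and 8.99 in the treated mutant pools, with a difference of -2.19 ± 0.52 (SE, n = 2 and 2, adjusted p = 0.042). Of 28 cell cycle genes, 1, the replication helicase subunit *Mcm3*, was lower, at -0.52, and 0 were higher, a share of 3.57% beside the 11.4% of all genes. In 21 of the 28 both treated mutant pools were below both control pools, which held for 29% of all genes tested. The median was -0.30 beside 0.48 in the untreated mutant.

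**Figure D5:**
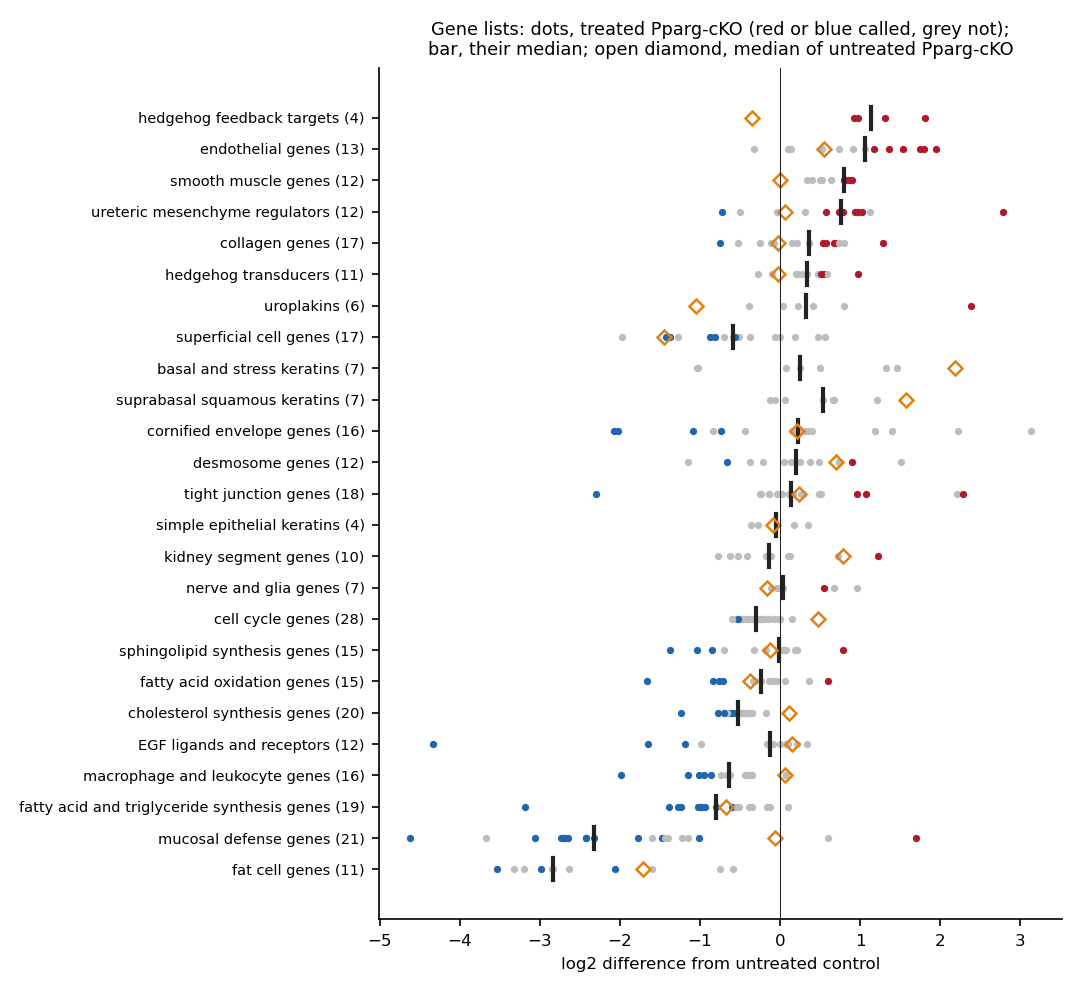
Log2 difference of treated *Pparg-cKO* minus untreated control for each tested member of the gene lists (dots), with a bar for the list's median and an open diamond for the median in untreated *Pparg-cKO* minus the same controls. The medians of mucosal defense, fat cell and lipid synthesis genes lie below 0, and those of hedgehog feedback targets, endothelial and smooth muscle genes above 0. The fetal lists are not shown.

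The rule of the study, applied to the scanner's processed signals, gave fewer genes. An intensity over 100 in the brighter channel and a change of 1.5-fold or more, alike in direction in the male and the female pair, were met by 823 genes (2.75% of 29924 gene names) in the higher and 794 (2.65%) in the lower direction. Of the genes called by limma, 591 of the higher and 605 of the lower also met this rule. Over the members of all gene lists together, 412 were tested, 61 were higher and 88 lower, 149 in all.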

How the data were processed

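RNA of male and female pools of control and *Pparg-cKO* ureters, treated with DMSO or purmorphamine, was hybridized to 4 arrays on 1 slide in 1 scan. Per the file headers, the deposited intensity of a spot is the mean signal of each dye with its local background, not normalized, beside processed intensities from which the scanner software had removed background and dye bias. The submitters' processing notes name Agilent Feature Extraction 10.7.3.1 and the headers 12.2.0.7. The table of the series, not used here, holds the authors' own fold changes within arrays. Each array had 39429 probes and 157716 spots that were not controls. Per channel 66.3% to 70.5% of them were well above background, and 0 were saturated. Median background was 21 to 22 for the green and 65 to 76 for the red dye. The number of arrays limits the precision, and the median over genes of the standard deviation between 2 pools was 0.123 in the controls and 0.0859 in the treated mutant.

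In R 4.3.3 with limma 3.58.1 and data.table (version 1.17.8), mean signals were background corrected (normexp, offset 50), normalized by loess within and Aquantile between arrays, and averaged per probe without outlier spots. All 8 channels entered a separate-channel fit, whose correlation between the channels of a spot, 0.0587, came from 4000 probes, and moderated tests, two-sided, with Benjamini-Hochberg adjustment over 20229 genes and a threshold of 0.05. A gene was represented by its brightest of 27064 tested probes. Where a probe was not well above background in a whole group, only a bound on the fold is given, from the lowest signals well above background on each array. Of the tested gene names, 16814 are listed in RefSeq. The fit was also run on data simulated from its own estimates of the spread, without effects of dye or sex. That run does not check the fit against such effects. Between the groups compared, the deviations of same-numbered pools from the group means had r = -0.038. Over the other pairs of groups r was -0.15 to 0.47. The compared pools of a pair differ in dye, so that shared effects of sex and dye can offset each other. The value of -0.038 therefore does not decide whether replicate numbers pair these pools. For the fold rule, processed signals were averaged geometrically per probe, scaled to a 75th percentile of 1500 and floored at 15, and a gene needed a probe above 100 and at least 1.5-fold in both pairs.

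Named genes are the 10 largest called increases and decreases, the 5 largest of each class (still lower, still higher, near, called only in the treated comparison), all past control, *Pparg* and *Shh*, and members of 31 gene lists, above all the called and the defining ones. The rule, the members and the lists were chosen with earlier results of these data known. Some genes are not reported here. Alternatives changed the normalization, the filter, the probe, the terms of the fit and the arrays used.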

Additional observations from a re-analysis of the deposited data

Results flagged for a closer look

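In 6 genes of the lists the male and the female pair moved in opposite directions, by over 1.5-fold each. The difference between the pairs was not tested, and sex, dye and replicate number are the same split here, so they cannot be told apart. *S100a9*, a calprotectin subunit of neutrophils and stressed epithelium, differed between treated *Pparg-cKO* and untreated control by 3.40 in the female and -2.21 in the male pair. *Krt16*, *Krt6a* and *Krt6b*, keratins of stressed epithelium, differed by 3.34, 1.64 and 0.82 in the female and by -0.68, -0.64 and -0.68 in the male pair, and *Krt1*, a keratin of squamous epithelium, by 2.01 and -0.67. *Dpp4* differed by 0.67 in the female and -0.59 in the male pair. None of the 6 was called, with adjusted p-values in limma of 0.64 to 0.97.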

How the results depend on the processing

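With a replicate block, 413 genes were higher and 395 lower, 103 still higher, 81 still lower, 104 near control and 68 list members called. With dye as a term these were 249, 303, 68, 52, 40 and 41, with 1 gene past control. With the block and dye, 175 were still lower, 143 near and 8 past. On the scanner's processed signals 722 genes were lower, 145 still lower, 118 near and 93 list members called, and 58.9% of calls were higher against 48.4% as reported. Without normalization between arrays 654 were higher, 2628 lower, 572 still lower and 8 past, 19.9% of calls were higher, and the median of all genes was -0.14. A fit of the 4 compared channels alone called 332 higher, 375 lower and 68 list members, and gives no classes. At 2-fold the fold rule called 305 higher and 370 lower.

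Leaving out 1 array at a time, which assumes that the lone remaining pool varies like the others, gave 146 to 599 higher, 103 to 780 lower, 39 to 106 still higher, 15 to 132 still lower, 4 to 122 near, 0 to 3 past and 34 to 86 list members called. The share of calls that were higher was 58.6% without the male control and 37.9% without the female *Pparg-cKO* array. By the fold rule 1 pair alone gave 1385 to 2558 higher and 1302 to 1899 lower. The cause of these shifts was not tested. Of all 2304 called genes, 10 turned direction on the processed signals and 1 with the mean of all tested probes. The single-gene results below cover only the genes chosen for the text. Of 1901 single-gene results under the other settings 1592 kept their direction and call, 299 lost and 10 gained the call, and of 692 without an array 400, 279 and 13, with 0 reversed. All 5 named genes still higher and 4 of 5 still lower were called under all 15 alternatives, but 0 of 5 lower genes not called untreated. Slide and scan were not run as a block, as there was 1 of each.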

Other observations

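Gene groups not described above were mostly uncalled. Of 7 keratins of suprabasal squamous layers limma called 0 at the adjusted p, an unadjusted p under 0.05 was found for 2 with higher and 0 with lower values, and the fold rule gave 2 higher and 1 lower. Of 4 keratins of simple epithelium limma called 0 at the adjusted p, an unadjusted p under 0.05 was found for 1 with higher and 2 with lower values, and the fold rule gave 0. Of 7 nerve and glia genes 1 was higher, *Ncam1*, by 0.55, and 0 were lower. Of the 10 urothelial markers 1 was lower, *Trp63*.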
